A study of Mus musculus with 9 samples.

Results

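The genes described here are 10 genes of the MHC class II antigen presentation route, chosen by name from a table of 38720 genes. They are the antigen-presenting chains (H2-Aa, H2-Ab1, H2-Eb1), Cd74, which encodes the invariant chain, the peptide-loading chains H2-DMa and H2-DMb1, their antagonist chain H2-Oa, the transcriptional coactivator Ciita, and 2 genes that set how long class II stays on the cell surface, Cd83 and March8. H2-Eb1 is grouped with the antigen-presenting chains by family, as its alpha partner gene, H2-Ea-ps, was hardly counted (given below). All 10 were found, and each had at least 99 counts in every library.

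MHC class II molecules are pairs of an alpha and a beta chain that show peptides to CD4+ T cells. The invariant chain (Cd74) guides new pairs to the endosome, where H2-DM exchanges the invariant chain remnant for peptides and H2-O restrains H2-DM. Ciita is recruited to the SXY module of class II promoters by factors of the RFX complex, by CREB and by NF-Y. March8 is a membrane-bound ubiquitin ligase that marks surface class II for degradation, and Cd83 is a membrane protein that shields class II from ligases of this family. In the thymus, class II on cortical epithelial cells (cTEC) serves positive selection of CD4+ T cells, and class II on medullary cells (mTEC) serves tolerance to self.

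Polyadenylated RNA of mouse thymic epithelial cells was sequenced in 20 libraries of 6 groups, in a study of Foxn1, the forkhead transcription factor that thymic epithelium needs and nude mice lack. The transgenic groups carried a Foxn1 BAC transgene, with a FLAG tag by the series' description, on the nude background: heterozygous cTEC (3 libraries), homozygous cTEC (3), heterozygous mTEC (2) and homozygous mTEC (2). The deletion groups were cTEC of mice homozygous for the beta5t-rtTA locus and for floxed Foxn1, taken 72 h after doxycycline. Deleted mice (5 libraries) were also heterozygous for a tetO-Cre transgene and lose exons 7 and 8 of Foxn1, and control mice (5 libraries) lacked that transgene. Both therefore shared the rtTA, the floxed alleles and the drug, and the rtTA is driven from the locus of a cortical proteasome subunit. The labels give neither age nor sex of the mice, nor whether libraries of a group came from separate mice. The p-values below then measure only the spread between libraries, which may be technical.

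Every group was sorted as CD45-, EpCAM+ and MHC class II+, with Ly51+UEA1- for cTEC and Ly51-UEA1+ for mTEC. The gate selected for class II protein on the surface, so the class II transcripts are measured among cells that passed it. Transcripts of thymocytes, other leukocytes and fibroblasts were still counted, as given below. In whole libraries of sorted cells, fewer cells of a type and less RNA per cell cannot be told apart.

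Totals ran from 20719630 to 22372633 counts, and in all 6 groups the spread between libraries exceeded counting error. Levels are given as CPM, the counts of a gene scaled to the total of its library. Mean Foxn1 was 454 ± 91.6 CPM in control and 434 ± 81.1 CPM in deleted cTEC (SD, n = 5 each). In transgenic cTEC it was 1165.6 ± 37.97 CPM at the heterozygous and 1364.5 ± 103 CPM at the homozygous dose (n = 3 each), and in transgenic mTEC 495 ± 9.83 and 318 ± 15.5 CPM (n = 2 each). All heterozygous mTEC libraries were thus above the homozygous ones. This count spans the whole gene, including the exons left by the deletion and any transcript of the nude allele, so it checks neither the deletion nor the transgene. Of the subset markers, the cTEC markers Enpep, which encodes the sorted Ly51, and Ly75 had log2 differences of -2.26 and -4.40 between homozygous mTEC and cTEC. The mTEC regulator Aire had one of 8.69, and all passed the threshold. Epcam, also in the gate, had a mean of 859 CPM in homozygous mTEC and 373 CPM in homozygous cTEC.

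Members of the family sit close together in the genome. On mouse build GRCm38.p6, H2-Oa, H2-DMa, H2-DMb1, H2-Ab1, H2-Aa and H2-Eb1 lie within chr17:34092379-34316674, a span of 224.3 kb. Ciita lies at chr16:10480014-10531064, Cd83 at chr13:43785112-43803133, and March8, named Marchf8 in RefSeq, at chr6:116337599-116409540. Promoter windows of 250 bases before to 50 after the start were at hand from RefSeq (GRCm38.p6) for H2-Aa, H2-Eb1, H2-DMa, H2-DMb1, H2-Oa and March8, and were searched because the SXY module is the DNA element that Ciita acts through. H2-Ab1, Cd74, Ciita and Cd83 had no entry.

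The Y box was searched as GATTGG and the X box as CNNGNAAC, on both strands. The X letters were chosen after these promoters had been looked at. An X match followed by a Y match 14 to 30 bases further on the same strand was in the promoters of H2-Aa, H2-Eb1, H2-DMb1 and H2-Oa, and in 72 of 32851 promoters of the same length (0.219%). By themselves, GATTGG was in 16.1% and CNNGNAAC in 39.1% of all promoters. The stretches below are on the gene's own strand, 5′ to 3′, with the X match and then the Y match in capitals. They run over chr17:34287857-34287917 (minus strand) for H2-Aa, and on the plus strand over chr17:34305763-34305822 for H2-Eb1, chr17:34153084-34153144 for H2-DMb1 and chr17:34092290-34092350 for H2-Oa.
H2-Aa: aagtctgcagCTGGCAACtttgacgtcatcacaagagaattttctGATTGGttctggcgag
H2-Eb1: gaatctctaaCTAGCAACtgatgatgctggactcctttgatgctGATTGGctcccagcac
H2-DMb1: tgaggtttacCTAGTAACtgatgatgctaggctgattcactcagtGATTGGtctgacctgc
H2-Oa: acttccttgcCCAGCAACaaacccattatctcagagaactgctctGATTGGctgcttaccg

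The spacing is nearly the same in all of them, with 27 bases between the boxes in H2-Aa, H2-DMb1 and H2-Oa and 26 in H2-Eb1. The Y match begins 49, 60, 62 and 44 bases before the start in H2-Aa, H2-Eb1, H2-DMb1 and H2-Oa. H2-DMa has 2 promoter windows, which hold X matches but no X match followed by a Y match at that spacing, and March8 has neither box. The letters GACGC, the core of the Foxn1 motif, were in none of the windows of H2-Aa, H2-Eb1, H2-DMa, H2-DMb1 and H2-Oa, at 2 places in that of March8, and in 27.2% of all promoters. These are matches of letters within 300 bases and say nothing of binding.

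The first question is which of these transcripts depend on Foxn1 in cTEC, at 72 h after doxycycline. Of the 10 genes, Cd83 fell and none rose, against 1.69% of 15224 tested genes that fell and 0.282% that rose. Those shares rest on 43 genes higher and 257 lower. The numbers were 303 and 776 with DESeq2 (where H2-Eb1 also rose). With a block on library number they were 398 and 822, and the calls of the 10 genes did not change. Leaving out single libraries, they ran from 0 and 27 without deleted library 4 to 188 and 732 without control library 2. Cd83 was the gene of the set that moved by far the most, 7.66-fold lower. The 3 antigen-presenting chains, Cd74, the H2-DM and H2-O chains, Ciita and March8 did not pass the test.

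Cd83 stood at 300.2, 190, 500.4, 218 and 753 CPM in the 5 control libraries and at 34.0, 66.1, 46.8, 47.4 and 70.2 CPM in the 5 deleted libraries. The groups did not overlap, and the controls were spread widely. The log2 difference was -2.94 ± 0.40 (fitted value with its standard error, edgeR's quasi-likelihood test, adjusted p = 0.00934). Without deleted library 4 it was -2.90, with an adjusted p of 0.0501.

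The chain nearest to a change was H2-Eb1, the beta chain of I-E, at 1791, 1621, 1685, 1802 and 1461 CPM in control and 2073, 1813, 2090, 2121 and 2307 CPM in deleted libraries. All deleted values lay above all control values, by a log2 difference of 0.30 ± 0.09 that missed the threshold (adjusted p = 0.132). With DESeq2 the same gene passed it (0.295, adjusted p = 0.0184). The I-A beta chain H2-Ab1 had control values of 2801, 2737, 2712, 2934 and 2703 CPM and deleted values of 2968, 2846, 2952, 3173 and 3378 CPM, which overlapped (log2 difference 0.12 ± 0.08, adjusted p = 0.455).

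For the I-A alpha chain H2-Aa, the range was 2283 to 2551 CPM in control and 2345 to 2707 CPM in deleted cTEC, a log2 difference of 0.03 ± 0.08. Cd74 ranged from 4865 to 6304 CPM in control and from 5223 to 6549 CPM in deleted libraries (0.05 ± 0.12). Neither gene separated the groups, with adjusted p of 0.882 and 0.830. The log2 differences were 0.08 ± 0.07 for the loading chain H2-DMa, 0.14 ± 0.09 for H2-DMb1 and 0.20 ± 0.09 for the antagonist chain H2-Oa. Their groups overlapped, with adjusted p of 0.542, 0.398 and 0.281.

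Ciita was at 332, 394, 342, 354 and 407 CPM in control and at 292, 374, 330, 320 and 365 CPM in deleted libraries (log2 difference -0.15 ± 0.09, adjusted p = 0.387). Its groups overlapped. March8 ranged from 144 to 211 CPM in control and from 154 to 226 CPM in deleted libraries, with a log2 difference of 0.07 ± 0.13 (adjusted p = 0.796). The median log2 difference over the 10 genes was 0.08, and over all tested genes 0.01. Together the 10 genes took 1.28% to 1.47% of the counts in control and 1.34% to 1.62% in deleted libraries.

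Among 31 other genes of the route (partner chains, X- and Y-box factors, interferon gamma signalling, endosomal proteases), 28 were tested after deletion. Of these 3 fell and none rose, against 1.69% and 0.282% of all tested genes. Prss16, the thymus-specific serine protease of cTEC endosomes, was at 4226 ± 2404 CPM in control and 413 ± 139 in deleted cTEC (log2 difference -3.40 ± 0.41, adjusted p = 0.00876). The cathepsin Ctsl, which cleaves the invariant chain in cTEC, was at 5100 ± 2315 and 1909 ± 156 CPM (-1.46 ± 0.30, adjusted p = 0.0364). Irf8, an interferon regulatory factor, was the third (-1.26 ± 0.28, adjusted p = 0.0458). Only 1 of the 28 passed when control library 1 or 3 or any deleted library was left out, and with limma-voom.

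The RFX subunits Rfx5, Rfxap and Rfxank had log2 differences of 0.07, -0.12 and 0.01, and H2-Ob, the partner of H2-Oa, 0.23, none past the threshold (adjusted p from 0.4932 to 0.962). March1, a close relative of March8, was not tested, with 2 to 21 counts in these libraries. Thymocyte markers had a summed level of 59.7 to 473 CPM in control and 56.3 to 371 in deleted cTEC, and 0 of 10 tested passed. Fibroblast markers summed to 347 to 834 CPM in control and 773 to 1416 in deleted cTEC, with 0 of 7 past the threshold. Of 6 epithelial markers 1 passed, Ly75, at 366 CPM in deleted and 646 CPM in control cTEC (group means, log2 difference -0.85 ± 0.18, adjusted p = 0.0414). The part of these markers in the results was not tested.

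**Figure D1:**
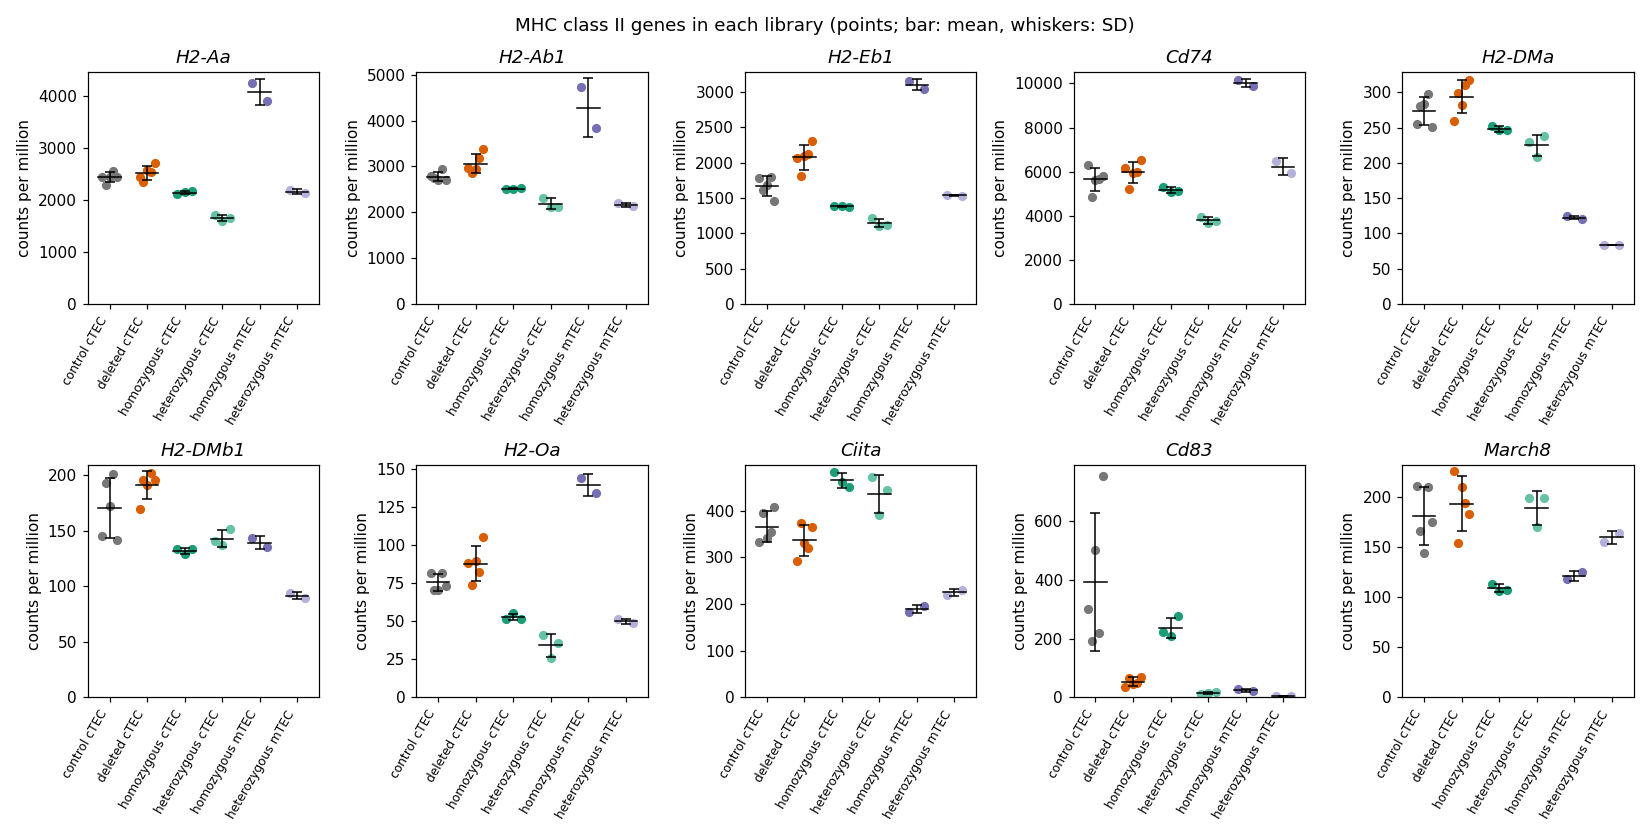
CPM (y axes, starting at 0) of the 10 genes in each of the 20 libraries, by group on the x axes; points are libraries, bars the means and whiskers the SD. Cd83 lies at 190 to 753 in control and at 34.0 to 70.2 in deleted cTEC, while the groups of the other genes except H2-Eb1 overlap between control and deleted cTEC.

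The second question is what transgene dose does in cTEC on the nude background. Of the 10 genes, 8 were lower and 1 was higher in heterozygous than in homozygous cTEC, against 21.9% of 19222 tested genes lower and 20.9% higher. All 3 antigen-presenting chains, Cd74, H2-DMa, H2-Oa, Ciita and Cd83 fell and March8 rose, while H2-DMb1 did not pass. These differences were at most 1.69-fold except for Cd83, which was 17.5-fold lower. Without normalization factors the share of higher calls over all genes was larger (5931 higher and 2859 lower, against 4024 and 4201), and the median of all genes moved by 0.13 on the log2 scale.

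Levels below are plain CPM, while the fold changes also use TMM factors, which were 0.907 to 0.915 in homozygous cTEC. CPM therefore gives a smaller deficit in heterozygous cTEC than the fitted value does.

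H2-Aa was at 1711, 1603 and 1652 CPM in heterozygous and 2114, 2151 and 2164 CPM in homozygous cTEC. The groups did not overlap (log2 difference -0.51 ± 0.06, adjusted p = 2.41e-05). H2-Ab1 was at 2319, 2118 and 2116 CPM in heterozygous and 2511, 2513 and 2526 CPM in homozygous cTEC (-0.34 ± 0.08, adjusted p = 0.00416). Its beta counterpart in I-E, H2-Eb1, had 1212, 1107 and 1115 CPM against 1383, 1387 and 1375 CPM (-0.40 ± 0.06, adjusted p = 1.35e-04). In each of the 3 chains the first heterozygous library was the highest of its group and still below every homozygous library.

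Cd74 dropped without overlap, from 5318, 5077 and 5120 CPM in homozygous to 3968, 3683 and 3747 CPM in heterozygous cTEC (log2 difference -0.58 ± 0.07, adjusted p = 1.61e-05). H2-Oa fell from 51.7, 55.2 and 51.1 CPM to 40.7, 25.9 and 35.7 CPM (-0.76 ± 0.12, adjusted p = 2.34e-04). Its heterozygous libraries were spread widely, and none reached a homozygous value. H2-DMa was at 229, 208 and 238 CPM in heterozygous and 253, 246 and 246 CPM in homozygous cTEC, a smaller but called difference (-0.28 ± 0.06, adjusted p = 0.00148).

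H2-DMb1, the beta partner of H2-DMa, was at 141, 137 and 152 CPM in heterozygous and 134, 129 and 134 CPM in homozygous cTEC. Its CPM lay slightly higher in every heterozygous library, whereas the fitted log2 difference was -0.02 ± 0.05 (adjusted p = 0.833). H2-DMb2, a near-identical copy beside it, fell by 0.54 on the log2 scale (adjusted p = 3.04e-04). Reads may be split between these 2 copies, so the count of either is uncertain. Their sum was 306 ± 28.2 CPM in heterozygous and 348 ± 11.03 CPM in homozygous cTEC (SD, n = 3 each).

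Ciita was at 473, 392 and 443 CPM in heterozygous and 482, 462 and 450 CPM in homozygous cTEC. The groups overlapped, and the called difference was small (log2 -0.23 ± 0.07, adjusted p = 0.0229). It lost the call without heterozygous library 2 (-0.15, adjusted p = 0.0896) or 3 (-0.22, 0.0553), without homozygous library 1 (-0.20, 0.0840) or 2 (-0.23, 0.0562), and without normalization factors (-0.09, 0.299).

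Cd83 dropped from 223, 210.5 and 276 CPM in homozygous to 12.6, 13.4 and 18.6 CPM in heterozygous cTEC (log2 difference -4.13 ± 0.15, adjusted p = 2.45e-10). The lowest homozygous library was far above the highest heterozygous one. March8 went the other way, with 199, 170 and 199 CPM in heterozygous against 113, 107 and 107 CPM in homozygous cTEC (0.66 ± 0.07, adjusted p = 4.20e-06). Thus the transcript of the ligase was higher, and that of the protein shielding class II lower, in the group with 1 transgene dose. The median log2 difference of the 10 genes was -0.37, and that of all tested genes 0.00.

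Of the 31 other genes of the route, 30 were tested for dose in cTEC. Of these 17 were lower and 5 higher, against 21.9% and 20.9% of all tested genes. Ctsl fell by 2.26 on the log2 scale (adjusted p = 6.78e-10) and Prss16 by 4.90 (adjusted p = 1.71e-09). Rises were led by the exopeptidase Ctsz (1.32 ± 0.08, adjusted p = 2.93e-08) and the NF-Y subunit Nfyb (0.54 ± 0.06, adjusted p = 1.48e-05). Proteases and Y-box factors thus did not all move one way.

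H2-Ob rose in heterozygous cTEC, from 2.62, 2.49 and 2.66 CPM to 7.13, 5.52 and 6.79 CPM (log2 difference 1.19 ± 0.14, adjusted p = 1.68e-05), opposite to its partner chain H2-Oa. Rfx5 and Rfxap were lower by small amounts (-0.23, adjusted p = 0.0378, and -0.26, adjusted p = 0.00335). Rfxank had a log2 difference of 0.12 (adjusted p = 0.158) and March1 one of 0.42 (adjusted p = 0.585), with 1 to 5 counts per library for March1.

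Thymocyte markers moved with dose in cTEC: 11 of 11 were lower in heterozygous cTEC, with summed levels of 9.91 to 17.5 CPM against 58.2 to 92.7 CPM in homozygous cTEC. The pan-leukocyte gene Ptprc had 20 to 27 counts in heterozygous and 140 to 231 in homozygous libraries. Fibroblast markers summed to 219 to 242 CPM in heterozygous and 37.4 to 39.8 CPM in homozygous cTEC, with 4 of 7 higher. Dcn (153 against 30.2 CPM, heterozygous against homozygous means) and Col1a2 (46.0 against 4.15) made up most of this sum. Lum was at 22.2 against 0.880 CPM and Col3a1 at 5.20 against 2.42. Near 0 in both groups were Col1a1 (0.521 against 0.602), Pdgfra (0.322 against 0.0612) and Pdgfrb (0.597 against 0.375). B cell markers were near 0 in both (summed 0.476 to 1.42 CPM), and markers of dendritic cells and macrophages summed to 10.5 to 18.3 CPM. All 6 epithelial markers passed the test: Krt5 (547 against 95.3 CPM, heterozygous against homozygous means) and Epcam (522 against 373) were higher, and Krt8 (1441 against 3781), Ly75 (483 against 1164), Enpep (89.6 against 131) and Aire (1.42 against 2.25) were lower in heterozygous cTEC. The part of the thymocyte, fibroblast and epithelial markers in the class II differences was not tested.

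The same dose comparison in mTEC gave larger differences in the antigen-presenting chains. Here 8 of the 10 genes were lower and 2 higher in heterozygous mTEC, against 30.8% of tested genes lower and 28.9% higher. With size factors of the RLE kind the calls over all genes split 3911 higher to 7082 lower, and with DESeq2 3421 to 5640, against 5550 to 5922. RLE moved the median of all genes by -0.13 on the log2 scale. All 3 chains, Cd74, H2-DMa, H2-DMb1, H2-Oa and Cd83 fell, and Ciita and March8 rose.

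H2-Aa was at 2197 and 2125 CPM in heterozygous and 4252 and 3895 CPM in homozygous mTEC (log2 difference -0.89 ± 0.08, adjusted p = 1.43e-06). For H2-Ab1 the values were 2198 and 2130 against 4731 and 3830 CPM (-0.96 ± 0.10, adjusted p = 5.56e-06). H2-Eb1 had 1544 and 1536 against 3159 and 3047 CPM (-0.99 ± 0.08, adjusted p = 5.00e-07). The chains were thus 1.85-fold to 1.98-fold lower in heterozygous mTEC. No groups overlapped, which carries little weight with 2 libraries against 2.

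Cd74 fell to 6487 and 5958 CPM from 10140 and 9882 CPM (log2 difference -0.66 ± 0.08, adjusted p = 2.93e-05). The loading chains H2-DMa (84.1 and 83.8 against 124 and 121 CPM) and H2-DMb1 (93.6 and 89.5 against 143 and 135 CPM) fell by 0.52 and 0.58. H2-Oa fell by 1.45 ± 0.15, from 144 and 134 CPM to 51.1 and 48.7 CPM (adjusted p = 4.27e-06). Of the 10 genes only Cd83 had a more negative fitted value, in mTEC as in cTEC.

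Cd83 was scarce in mTEC, with 26.8 and 20.5 CPM in homozygous and 4.66 and 5.24 CPM in heterozygous libraries, which corresponds to 99 and 111 counts in the heterozygous ones (log2 difference -2.23 ± 0.22, adjusted p = 3.16e-06). March8 had 155 and 164 CPM in heterozygous against 118 and 125 CPM in homozygous mTEC (0.42 ± 0.08, adjusted p = 8.51e-04). Ciita was at 220 and 230 CPM in heterozygous and 183 and 196 CPM in homozygous mTEC (0.27 ± 0.09, adjusted p = 0.0188). It lost its call with RLE factors (0.15, adjusted p = 0.170), without the count filter, with DESeq2, without heterozygous mTEC library 2 (0.25, 0.0823) and without homozygous mTEC library 1 (0.23, 0.124). The median log2 difference of the 10 genes was -0.78, against 0.01 for all tested genes.

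Of the 30 tested other genes, 17 were lower and 4 higher in heterozygous mTEC, against 30.8% and 28.9% of all tested genes. H2-Ob fell from 36.2 and 36.9 CPM to 8.29 and 10.2 CPM (log2 difference -1.96 ± 0.13, adjusted p = 1.72e-07), and Ctsz by 0.98 (adjusted p = 8.57e-07). The NF-Y subunits Nfya (0.64, adjusted p = 8.23e-06) and Nfyb (0.44, adjusted p = 3.65e-04) were higher. Rfxank rose (0.31, adjusted p = 0.00630), March1 fell (-1.52, adjusted p = 0.00236), and Rfx5 and Rfxap had log2 differences of -0.08 and 0.01 (adjusted p of 0.538 and 0.907).

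Markers of other class II-bearing cells moved with dose in mTEC. Markers of dendritic cells and macrophages summed to 582 to 676 CPM in homozygous and 145 to 147 CPM in heterozygous mTEC, with 8 of 11 tested lower and 0 higher. Lyz2 made up most of this, with 11931 and 9982 counts against 1856 in each heterozygous library, while Itgax had 37 and 27 counts against 10 and 3. B cell markers, summed, were at 93.7 to 96.7 CPM in homozygous and 92.7 to 97.3 CPM in heterozygous mTEC, with 5 of 8 lower and 2 higher. Cr2 had the most counts among them and was higher in heterozygous mTEC (72.4 to 72.9 against 42.8 to 48.0 CPM), and the other 7 summed to 20.3 to 24.4 CPM in heterozygous and 45.8 to 53.9 CPM in homozygous mTEC. Thymocyte markers were lower for 11 of 11 genes (34.4 to 35.6 against 62.3 to 81.4 CPM). Dendritic cells, macrophages and B cells also express class II genes, and their part in the mTEC differences was not tested.

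**Figure D2:**
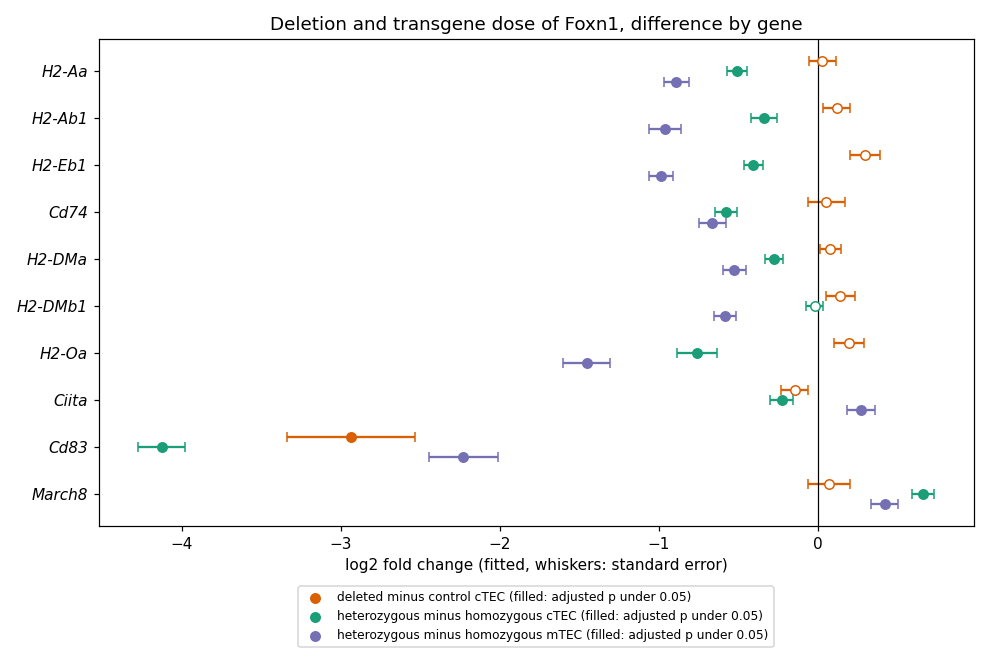
Fitted log2 fold changes (x axis) with standard errors (whiskers) of the 10 genes (y axis) for deleted minus control cTEC, heterozygous minus homozygous cTEC and heterozygous minus homozygous mTEC; filled points have an adjusted p under 0.05. Cd83 is the 1 gene with a filled point left of 0 in all 3 comparisons, and March8 lies right of 0 by 0.66 and 0.42 in the dose comparisons.

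Whether dose acted differently in the subsets was tested directly as an interaction, the cTEC difference minus the mTEC difference. The value was positive and past the threshold for 6 of the 10 genes, against 17.2% of all genes, and negative for 2, against 25.2%. With RLE factors the calls over all genes split 3925 to 3403, without factors 4123 to 3101 and with DESeq2 3549 to 3200, in place of 3314 to 4848. The median shift over all genes was 0.13 with RLE factors and 0.16 without factors.

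Antigen-presenting chains fell more in mTEC, by interaction values of 0.38 ± 0.10 for H2-Aa (adjusted p = 0.00742), 0.62 ± 0.13 for H2-Ab1 (0.00162) and 0.58 ± 0.10 for H2-Eb1 (3.80e-04). The loading chains did so too, with 0.56 ± 0.09 for H2-DMb1 (adjusted p = 1.73e-04) and 0.25 ± 0.09 for H2-DMa (0.0445). So did their antagonist chain H2-Oa, with 0.69 ± 0.19 (0.00999). H2-DMa lost the call when any of 9 of the 10 libraries was left out, and H2-Oa without homozygous mTEC library 1 (0.64, adjusted p = 0.0685). Cd74 had an interaction of 0.08 ± 0.11 (adjusted p = 0.583) and March8 of 0.24 ± 0.11 (adjusted p = 0.0912).

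For Cd83 the interaction was -1.90 ± 0.27 (adjusted p = 1.16e-04), so that it was reduced 3.73-fold more in heterozygous cTEC than in heterozygous mTEC, each against the homozygous dose. Ciita had -0.50 ± 0.12 (adjusted p = 0.00365), with opposite signs in cTEC and mTEC. H2-Ob had the largest interaction among the named genes of the route, 3.15 ± 0.20 (adjusted p = 1.18e-07), rising in heterozygous cTEC and falling in heterozygous mTEC. Of the 30 other genes, 5 had positive (8 without normalization factors) and 9 negative interactions, against 17.2% and 25.2% of all tested genes. Among them were Ctsz (2.29), Ctsl (-1.72) and Prss16 (-2.95). March1 (1.94, adjusted p = 0.0267) and Rfxap (-0.27, adjusted p = 0.0452) also passed, and Rfx5 and Rfxank had values of -0.16 and -0.18 (adjusted p of 0.377 and 0.191).

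The subsets were compared at each dose. In homozygous mice 5 of the 10 genes were higher and 4 lower in mTEC than in cTEC, against 43.2% and 39.4% of all tested genes. In heterozygous mice 4 were higher and 5 lower, against 40.4% and 31.6%. H2-Aa, H2-Eb1, Cd74 and H2-Oa were higher in mTEC at both doses, and H2-DMa, Ciita and Cd83 were lower at both. Without normalization factors the homozygous calls over all genes split 9581 to 5724 in place of 8303 to 7577, and the median of all genes moved by 0.24 on the log2 scale.

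In homozygous mice the log2 differences (mTEC minus cTEC) were 0.68 ± 0.07 for H2-Aa, 0.52 ± 0.09 for H2-Ab1, 0.92 ± 0.07 for H2-Eb1 and 0.71 ± 0.08 for Cd74 (adjusted p of 1.02e-04 or less). In heterozygous mice H2-Aa (0.30 ± 0.07), H2-Eb1 (0.34 ± 0.07) and Cd74 (0.63 ± 0.08) were still higher in mTEC. H2-Ab1 was not (-0.10 ± 0.09, adjusted p = 0.336), with overlapping groups. The differences between the doses here are the interactions given above.

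Ciita, the coactivator of these genes, ran opposite to H2-Aa, H2-Ab1 and H2-Eb1 in homozygous mice. It was at 190 CPM in homozygous mTEC against 465 CPM in homozygous cTEC (group means, log2 difference -1.54 ± 0.09, adjusted p = 1.37e-09). In heterozygous mice it was at 225 against 436 CPM (-1.04 ± 0.08, adjusted p = 1.10e-07), opposite to H2-Aa and H2-Eb1, while H2-Ab1 did not pass. H2-DMa went the same way as Ciita at both doses. The lowest transgenic cTEC library, at 392 CPM, was above the highest mTEC library of either dose, at 230 CPM. Rfxap was likewise lower in mTEC (-1.44 in homozygous and -1.16 in heterozygous mice, adjusted p of 5.30e-10 and 8.16e-09), and Rfxank less so (-0.42 and -0.23, adjusted p of 1.88e-04 and 0.0126). Rfx5 had -0.26 in homozygous (adjusted p = 0.0212) and -0.10 in heterozygous mice (adjusted p = 0.351).

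H2-DMa was 2.40-fold lower in homozygous and 2.85-fold lower in heterozygous mTEC (log2 -1.26 ± 0.07 and -1.51 ± 0.07, adjusted p of 8.01e-10 and 2.70e-10). H2-DMb1 was lower in heterozygous mTEC (-0.73 ± 0.06, adjusted p = 1.77e-07). In homozygous mice its direction depended on the scaling: the fitted value was -0.17 ± 0.06 (adjusted p = 0.0215), and it was 0.02 with RLE factors, 0.08 without factors and 0.01 with DESeq2. H2-DMb2 was higher in mTEC at both doses (0.75 and 0.50, adjusted p of 8.92e-06 and 5.23e-04). The sum of the 2 copies was 569 ± 7.78 CPM in homozygous mTEC and 336 ± 3.65 CPM in heterozygous mTEC (SD, n = 2 each). In cTEC it was lower, at 348 ± 11.03 CPM in homozygous and 306 ± 28.2 CPM in heterozygous mice (SD, n = 3 each).

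H2-Oa was higher in mTEC by 1.16 ± 0.13 in homozygous and 0.46 ± 0.14 in heterozygous mice (adjusted p of 1.74e-06 and 0.00830). H2-Ob was higher by 3.57 ± 0.14 and 0.42 ± 0.13 (adjusted p of 2.57e-11 and 0.0125). Both chains of the H2-DM antagonist were thus higher in mTEC, while the H2-DM alpha chain was lower. The summed plain CPM of the beta copies was higher, a sum that was not tested.

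Cd83 was 11.8-fold lower in homozygous and 3.18-fold lower in heterozygous mTEC (log2 -3.57 ± 0.17 and -1.67 ± 0.21, adjusted p of 2.02e-10 and 9.52e-06). March8 was lower in heterozygous mTEC (-0.33 ± 0.08, adjusted p = 0.00159). That call was lost without heterozygous mTEC library 1 (-0.22, adjusted p = 0.0742). In homozygous mice March8 had a fitted value of -0.09 ± 0.08 (adjusted p = 0.291), although its CPM was higher in both mTEC libraries (118 and 125) than in the 3 cTEC libraries (107 to 113). March1 was higher in mTEC at both doses (3.01 and 1.07, adjusted p of 8.49e-06 and 0.0478), at no more than 35 counts in a library.

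Of the 30 other genes tested, 14 were higher and 15 lower in homozygous mTEC, against 43.2% and 39.4% of all tested genes. In heterozygous mTEC 14 were higher and 10 lower, against 40.4% and 31.6%. Fewer were lower when heterozygous mTEC library 1 or 2 was left out. In homozygous and heterozygous mice, the proteases Ctss (log2 differences of 5.94 and 6.10) and Ctsz (4.36 and 2.07) were higher in mTEC. The proteases Ctsl (-3.04 and -1.32) and Prss16 (-5.87 and -2.92) were lower. Irf4 was higher in mTEC by 5.30 and 5.83. H2-Ea-ps, the alpha partner gene of H2-Eb1, had at most 17 counts in a library and was not tested. Whether the H2-Eb1 chain forms pairs at the surface cannot be read from its transcript.

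B cell markers were higher in mTEC for 8 of 8 genes at both doses. They summed to 92.7 to 97.3 CPM in the mTEC and 0.476 to 1.42 CPM in the transgenic cTEC libraries. Cr2 alone held 72.4 to 72.9 CPM of this sum in heterozygous and 42.8 to 48.0 CPM in homozygous mTEC. In heterozygous mTEC Cd79a had 19 and 26 counts. Dendritic cell and macrophage markers were higher for 11 of 11 tested genes in homozygous mTEC and for 10 of 11 in heterozygous mTEC. Itgax had a mean of 0.306 CPM in heterozygous mTEC and also 0.306 CPM in heterozygous cTEC. The part of these markers in the higher class II transcripts of mTEC was not tested.

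**Figure D3:**
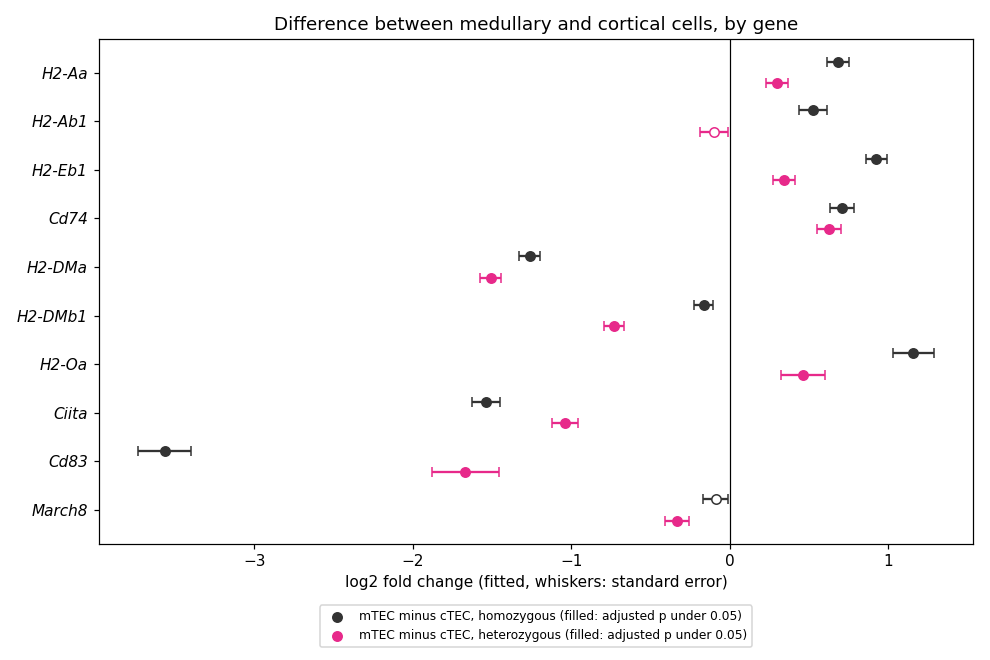
Fitted log2 fold changes (x axis) with standard errors (whiskers) of the 10 genes (y axis), mTEC minus cTEC, in homozygous and in heterozygous transgenic mice; filled points have an adjusted p under 0.05. H2-Aa, H2-Eb1, Cd74 and H2-Oa lie right of 0 at both doses and H2-DMa, Ciita and Cd83 left of 0; the small homozygous difference of H2-DMb1 turned sign with other scalings.

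The ratio of H2-Oa to H2-DMa counts within a library does not depend on the scaling between libraries. As the transcripts differ in length, only its differences between groups can be read, not its size. It was 0.276 ± 0.029 in control and 0.300 ± 0.041 in deleted cTEC (SD, n = 5 each), 0.151 ± 0.027 in heterozygous and 0.212 ± 0.011 in homozygous cTEC (n = 3 each). In mTEC it was 0.595 ± 0.018 at the heterozygous and 1.13 ± 0.038 at the homozygous dose (n = 2 each). Every mTEC library thus lay above every cTEC library in this ratio, which uses the alpha chain of H2-DM only. The summed beta copies H2-DMb1 and H2-DMb2 had a higher plain CPM in mTEC at both doses, a sum that was not tested. In heterozygous mice it was 334 to 339 CPM in mTEC and 273 to 326 CPM in cTEC. TMM factors, which plain CPM leaves out, were 1.06 in these mTEC libraries and 0.984 to 1.01 in these cTEC libraries. Scaling by them would narrow this gap.

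In the deletion set the log2 ratio differed by 0.11 (two-sided exact permutation test, p = 0.349, with a smallest possible p of 0.00794). For dose in cTEC the single ratios were 0.178, 0.124 and 0.150 in heterozygous and 0.204, 0.224 and 0.208 in homozygous libraries. These did not overlap, with a log2 difference of -0.51 (exact permutation test, p = 0.1, the smallest that 3 against 3 allow). With 2 libraries per mTEC group no such test was run there.

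**Figure D4:**
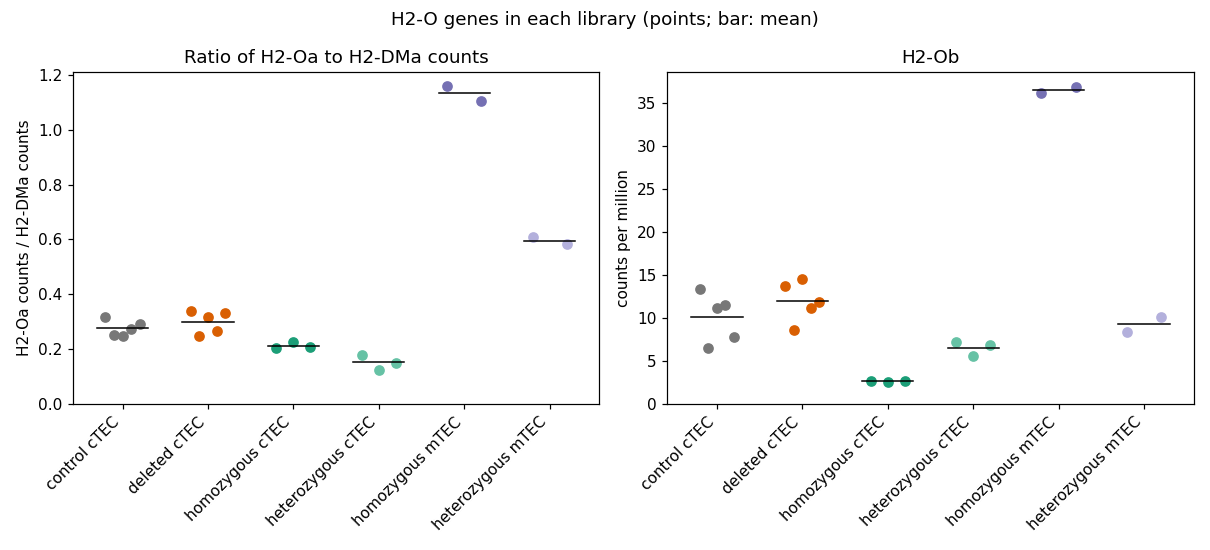
Left: the ratio of H2-Oa to H2-DMa counts (y axis) in each library by group; right: H2-Ob in CPM (y axis). Points are libraries and bars are means, and both axes start at 0; the ratio is 1.106 and 1.16 in the homozygous mTEC libraries and at most 0.340 in any cTEC library, and H2-Ob is 36.2 and 36.9 CPM in homozygous mTEC against 2.49 to 2.66 in homozygous cTEC.

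Over all 6 groups, the order of the mean levels was nearly the same for the antigen-presenting chains. Homozygous mTEC had the highest level of H2-Aa, H2-Ab1, H2-Eb1, Cd74 and H2-Oa, each without overlap with the next group, and deleted and control cTEC followed for H2-Aa, H2-Ab1, H2-Eb1 and H2-Oa. Deleted and control cTEC overlapped in H2-Aa, H2-Ab1 and H2-Oa, and control cTEC overlapped heterozygous mTEC in H2-Eb1. Heterozygous cTEC was the lowest for H2-Aa, H2-Eb1, Cd74 and H2-Oa. For H2-Ab1 it was next to lowest, with values overlapping those of heterozygous mTEC.

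The remaining genes had other orders. H2-DMb1 was highest in deleted cTEC, followed by control cTEC, heterozygous cTEC and homozygous mTEC, each overlapping the next, and lowest in heterozygous mTEC (91.6 ± 2.93 CPM). H2-DMa ran from deleted, control, homozygous and heterozygous cTEC down to homozygous and heterozygous mTEC, and the first 3 overlapped pairwise in that order. Ciita had its highest mean in homozygous cTEC (465 ± 16.6 CPM), then heterozygous, control and deleted cTEC, each overlapping the next, and its lowest in homozygous mTEC (190 ± 8.82 CPM). Cd83 ran from control cTEC (392 ± 235 CPM) over homozygous cTEC (236 ± 34.6), which overlapped, to deleted cTEC, homozygous mTEC, heterozygous cTEC and heterozygous mTEC (4.95 ± 0.408), none of which overlapped. For March8, deleted, heterozygous and control cTEC and heterozygous mTEC overlapped in turn (means 193, 189, 181 and 160 CPM), above homozygous mTEC (121) and homozygous cTEC (109). The transgenic and deletion sets differ in allele, background and handling, so levels across them were not tested.

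Genes with the most similar course were sought among 13770 genes with a mean of at least 2 CPM, by the root mean square difference of the log2 group means after centring each gene. This likeness is a description over 6 group means. H2-Ab1 was nearest to Elovl5 (0.087), Acsl6, Paqr7, Wipf1 and Osbpl3 (0.108). Of its own family H2-Aa ranked 8 (0.131), H2-Eb1 42 and Cd74 166, while Ciita ranked 9701 and Cd83 13356.

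Ciita was nearest to Tmem65 (0.054), Wdr35, Rnf169, Ajuba and Mtmr10 (0.065). Its nearest gene among the other 9 was H2-DMa, at rank 3460, and H2-Oa stood at rank 10844. Cd83 was nearest to Isg20 (0.569), Slc22a7, Crip3, Prss16 and Aldh1l1 (0.817). Isg20 stood at 304 CPM in control, 69.7 in deleted, 245.5 in homozygous and 13.1 in heterozygous cTEC (group means). The member nearest to Cd83 was again H2-DMa, at rank 428.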

How the data were processed

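The authors deposited raw read counts per gene, 38720 genes in 20 libraries, used as deposited. Per the submitters' processing notes, TopHat2 2.0.10, Bowtie2 2.2.3, BWA 0.7.5, Trimmomatic 0.32, Picard 1.105, SAMtools, featureCounts and MACS2 2.0.10 were used with mm10 and GRCm38; no source used here gives the annotation or strand setting of the counts. Library totals of 20719630 to 22372633 counts put at least 99 counts behind each of the 10 genes in each library.

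Counts were tested in R 4.3.3 with edgeR 4.0.16 (quasi-likelihood, TMM factors, filterByExpr with minimum count 10 and minimum total 15, two-sided, Benjamini-Hochberg over all tested genes, threshold 0.05). The deletion set was fitted on its own 10 libraries and the 10 transgenic libraries in 1 fit of 4 groups, since the mTEC groups hold 2 libraries. SE is the size of the fitted log2 fold change divided by the square root of F. Alternatives were RLE factors, no factors, no count filter, limma-voom (limma 3.58.1), DESeq2 1.42.0, smaller fits, a block on library number and leaving out each library. The test code was checked on simulated counts.

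The 10 genes, the lists and the tests were chosen with earlier results of these data known. By the rule for names, all 10 genes are named, as are Rfx5, Rfxap, Rfxank, H2-Ob and March1, up to 2 other genes of the route per direction and comparison with the smallest adjusted p, and the 5 nearest genes in likeness; H2-DMb2, Irf8, Isg20, H2-Ea-ps and the single markers were named after their values were seen. Likeness used log2(CPM + 0.5) and left out predicted genes. Of the list of dendritic cell and macrophage markers 12 of 13 were in the table. Chromatin samples of the series were not used here. A marker gene is not reported here.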

Additional observations from a re-analysis of the deposited data

Results flagged for a closer look

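For 8 of the 10 genes the dose difference (heterozygous minus homozygous) differed between cTEC and mTEC. Calls were positive for 6 and negative for 2, against 17.2% and 25.2% of all tested genes. Over all genes the calls split 3314 to 4848, and 3925 to 3403 with RLE factors. The test was of the difference itself, the interaction term of edgeR's quasi-likelihood fit. It was 0.38 for H2-Aa, 0.62 for H2-Ab1, 0.58 for H2-Eb1, 0.25 for H2-DMa, 0.56 for H2-DMb1 and 0.69 for H2-Oa on the log2 scale, where positive values mean a larger heterozygous deficit in mTEC. It was -0.50 for Ciita, which has opposite signs in the subsets, and -1.90 for Cd83, whose heterozygous deficit is larger in cTEC. The H2-DMa call was lost when any of 9 of the 10 libraries was left out, and that of H2-Oa without homozygous mTEC library 1, so that 4 to 7 of the 10 genes had positive calls. Markers of dendritic cells and macrophages were lower in heterozygous than in homozygous mTEC (8 of 11 genes), and their part in these interactions was not tested. Among 20 sets of values, the 10 genes in the 2 groups of 5 libraries, 0 had a library set apart from the others.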

How the results depend on the processing

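Of 46 gene and comparison pairs that passed the threshold, 39 kept call and direction in all alternatives run and 7 did not; of 14 that missed it, 3 passed in some alternative. With DESeq2, 1 of the 10 genes rose after deletion (H2-Eb1) in place of 0. Leaving out single libraries, the genes that fell after deletion numbered 0 to 1, with 0 without deleted library 4 (Cd83). For dose in mTEC, 1 gene rose with RLE factors, with no count filter and with DESeq2 in place of 2, and 1 to 2 when libraries were left out; Ciita was the gene lost. In the homozygous subset comparison, H2-DMb1 changed sign, to 0.0167 with RLE factors, 0.0789 without factors and 0.0119 with DESeq2. The March8 interaction passed with RLE factors (0.37, adjusted p = 0.0142), without factors, with DESeq2 and without heterozygous cTEC library 2, and that of Cd74 with DESeq2 (0.21, adjusted p = 0.0443). The causes of these changes were not tested, and a fit that leaves out a library also has fewer of them. Library numbers did not meet the criterion for pairing in the deletion set, as library 3 had a correlation of 0.085, below the threshold of 0.1. The other numbers had 0.353 to 0.754, and 8 of 10 libraries were closest to their own number. The main fit has no block, and the labels do not say what the numbers stand for. The replicate block moved the calls over all genes to 398 higher and 822 lower, from 43 and 257, and those of the 10 genes stayed at 0 and 1. DESeq2 gave 303 and 776, limma-voom 15 and 89, and leaving out single libraries from 0 and 27 to 188 and 732. Leaving out an mTEC library leaves 1 in its group, which is then assumed to vary like the other groups. With 2 or 3 libraries per transgenic group, small differences such as those of Ciita rest on single libraries.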
